A study of Mus musculus with 2 samples.

Results

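The genes described here encode the proteins of the mitochondrial ribosome and of the complexes that import proteins into mitochondria. They are the rows of the array table that carry a single gene symbol beginning with Mrpl, Mrps, Timm or Tomm and a number, without pseudogenes. This gave 98 rows for 96 genes of the 19512 genes measured: 48 genes of the large ribosomal subunit, 26 of the small subunit and 22 of the import machinery. All 96 genes passed the low-signal filter, and in each the dimmer of the 2 values was also at or above the low-signal level, so none passed through its brighter array alone. The filter kept a gene when the brighter value reached 5.44, the median of the table. A further 6 genes of the same naming pattern, Mrpl30, Mrpl53, Mrps6, Timm10b, Tomm5 and Tomm6, lie only on rows shared with another symbol and were left out, as were 4 pseudogene rows.

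RNA came from the corneal epithelium of C57BL/6 mice, male and female, aged 8 weeks and anaesthetised with 87 mg/kg of ketamine plus xylazine at 13 mg/kg. In the injured eye the epithelium had been scraped off through its full thickness as far as the limbus with a rust ring remover of 0.5 mm, and it was collected about 48 hours later with 10% of the wound still open. The control is the epithelium of the fellow eye, left uninjured. There was 1 array per group, the labels do not say how many mice each holds or of which sex, and no gene carries a test or a p-value. Genes are called by size alone, at 2-fold (a log2 difference of 1) or 1.5-fold (0.58), and every difference below is injured minus uninjured on the deposited log2 scale. The 1 measure of error that the table allows is the disagreement between different rows of a gene, which had an SD of 0.24 over 542 rows of 256 genes. All rows of a gene come from the same arrays, so this SD holds no spread between animals, RNA preparations or arrays. A difference above it may still lie within such spread.

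Mitochondria make a small set of inner membrane proteins of the respiratory chain on their own ribosome, whose protein subunits are all encoded in the nucleus and imported after synthesis in the cytosol. Precursors enter through the TOM complex of the outer membrane. The TIM23 complex then takes proteins with a cleavable presequence to the matrix, and the TIM22 complex inserts carrier proteins into the inner membrane after small TIM chaperones have escorted them across the space between the membranes. Mitoribosomal proteins are therefore both cargo of the import system and, once assembled, the source of the proteins that import cannot supply. Corneal epithelium is a stratified tissue renewed from the limbus, and its wounds close by migration and later division of these cells.

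The sequences just before the start sites of these genes are shown for 8 members, namely Timm8a1 and Tomm40 as the highest, 4 further high genes with an ETS or NRF1 match, and the lowest small and large subunit gene for contrast. Each is the 250 bases before the RefSeq start site in GRCm38.p6, read in the direction of the gene. Capitals mark every match, on either strand, to 6 short motifs. The motif of the factor NRF1 was searched as GCGCAN directly followed by GCGC. The ETS motif, bound by Gabpa and its relatives, was searched as CCGGAAG. The YY1 motif was searched as ATGGCGG, and the E-box, bound by Myc and other factors, as CACGTG. The last pair were the CCAAT motif, as its own letters, and the TATA motif, as TATAAA. Timm8a1 lies at chrX:134541671-134541920, minus strand. Tomm40 lies at chr7:19715430-19715679, minus strand, and Tomm70a at chr16:57121464-57121713, plus strand. Mrps27 lies at chr13:99344536-99344785, plus strand, Mrpl12 at chr11:120484387-120484636, plus strand, and Mrpl45 at chr11:97315466-97315715, plus strand. The low genes Mrps10 and Mrpl33 lie at chr17:47368947-47369196, plus strand, and chr5:31613701-31613950, plus strand.
Timm8a1: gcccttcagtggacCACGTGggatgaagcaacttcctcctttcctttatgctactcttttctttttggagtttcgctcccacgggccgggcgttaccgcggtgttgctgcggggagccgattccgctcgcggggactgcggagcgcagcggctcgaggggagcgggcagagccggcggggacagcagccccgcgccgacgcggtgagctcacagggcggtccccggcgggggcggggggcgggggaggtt
Tomm40: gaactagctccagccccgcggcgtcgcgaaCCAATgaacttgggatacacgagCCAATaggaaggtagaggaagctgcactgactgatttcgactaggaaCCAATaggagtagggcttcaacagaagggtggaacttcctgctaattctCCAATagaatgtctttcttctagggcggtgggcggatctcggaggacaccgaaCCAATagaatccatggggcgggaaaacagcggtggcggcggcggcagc
Tomm70a: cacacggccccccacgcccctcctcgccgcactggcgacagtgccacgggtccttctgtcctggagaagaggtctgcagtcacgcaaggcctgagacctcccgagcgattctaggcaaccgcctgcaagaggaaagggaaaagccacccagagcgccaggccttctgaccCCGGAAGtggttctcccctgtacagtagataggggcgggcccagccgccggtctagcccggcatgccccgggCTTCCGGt
Mrps27: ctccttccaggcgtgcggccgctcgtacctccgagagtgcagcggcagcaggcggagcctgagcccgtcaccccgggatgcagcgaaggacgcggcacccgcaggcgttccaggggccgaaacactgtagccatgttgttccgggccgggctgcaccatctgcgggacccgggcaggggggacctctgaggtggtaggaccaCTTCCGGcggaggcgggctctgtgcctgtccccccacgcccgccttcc
Mrpl12: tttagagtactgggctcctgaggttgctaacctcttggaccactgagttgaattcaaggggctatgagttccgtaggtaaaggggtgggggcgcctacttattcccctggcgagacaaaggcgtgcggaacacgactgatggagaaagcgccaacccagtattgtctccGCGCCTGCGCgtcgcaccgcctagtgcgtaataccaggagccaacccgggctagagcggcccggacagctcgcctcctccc
Mrpl45: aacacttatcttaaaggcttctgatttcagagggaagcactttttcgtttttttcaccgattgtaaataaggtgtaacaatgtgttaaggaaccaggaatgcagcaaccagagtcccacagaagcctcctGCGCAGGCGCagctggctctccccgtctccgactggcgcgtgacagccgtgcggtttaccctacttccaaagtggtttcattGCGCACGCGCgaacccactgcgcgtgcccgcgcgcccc
Mrps10: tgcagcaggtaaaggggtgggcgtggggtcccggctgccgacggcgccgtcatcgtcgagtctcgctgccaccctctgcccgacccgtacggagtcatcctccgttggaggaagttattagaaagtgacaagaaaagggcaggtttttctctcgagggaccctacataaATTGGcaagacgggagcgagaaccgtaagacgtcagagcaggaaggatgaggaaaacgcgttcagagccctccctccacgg
Mrpl33: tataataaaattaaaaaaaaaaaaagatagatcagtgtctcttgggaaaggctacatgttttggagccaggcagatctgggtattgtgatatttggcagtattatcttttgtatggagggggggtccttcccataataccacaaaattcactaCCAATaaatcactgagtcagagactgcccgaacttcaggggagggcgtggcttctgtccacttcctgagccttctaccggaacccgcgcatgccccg
Timm8a1 held 1 E-box, Tomm40 held 5 CCAAT matches, Tomm70a held 2 ETS matches and Mrps27 held 1. Mrpl12 had 1 NRF1 match and Mrpl45 had 2. Mrps10 and Mrpl33 each had a single CCAAT match and none of the other motifs. The 4 further high genes were picked for holding an ETS or NRF1 match, so their contrast with Mrps10 and Mrpl33 follows from that choice. Among other lower members, Tomm34 (-0.17) and a start of Mrpl48 (-0.11) held ETS matches. A match describes these letters and says nothing on whether a factor binds there.

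Most of these genes were a little higher in the injured epithelium. Of the 96 genes, 87 had a higher injured value, against 58.4% of all measured genes, 8 had a lower one, against 40.8%, and Mrps31 had the same value (6.94) in both arrays. The median difference was 0.33, a factor of 1.26, where the median over all measured genes was 0.06. At 1.5-fold, 24 of 96 were higher and 0 were lower, while over all measured genes 11.1% lay past 1.5-fold upward and 8.77% downward. These genes are mostly bright, with both values above the 75th percentile of the table in 77 of 96. With the brighter value at or above that percentile, 24 of 86 members were at least 1.5-fold higher. Of all genes passing this filter, 15.4% were higher and 12.5% lower by that size. At 2-fold, 3 were higher and 0 lower, against 4.14% and 3.92% of all measured genes, so the count past 2-fold does not set the family apart from the table. The differences are small: 31 of the 96 were below the SD of 0.24 between rows of a gene, and 72 were less than 1.5-fold apart. Mrpl34 (0.60) was the last gene inside 1.5-fold and Mrpl42 (0.58) the first outside it.

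**Figure D1:**
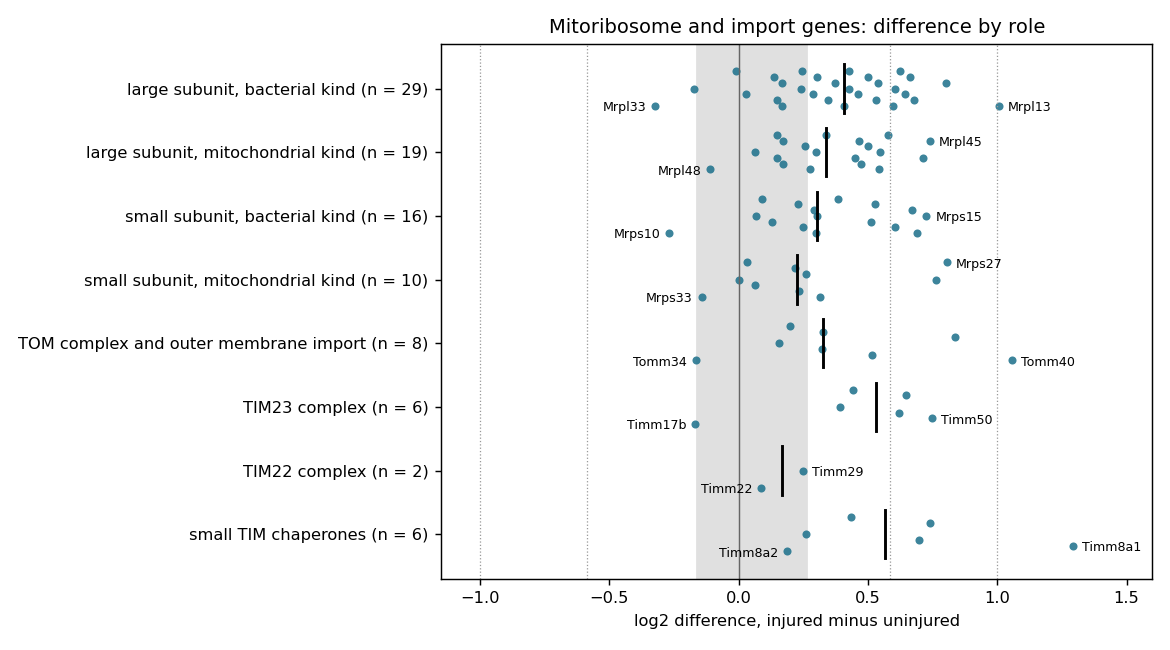
Log2 difference, injured minus uninjured, of each of the 96 genes (points, 1 array per group), in rows by role, with the median of each row as a black bar and its highest and lowest gene named. The grey band is the middle 50% of all 19512 measured genes, dotted lines mark 1.5-fold and 2-fold, and most points lie to the right of 0 with Timm8a1, Tomm40 and Mrpl13 at or past 2-fold.

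The large subunit carries the peptidyl transferase centre and the exit tunnel. Its 48 genes had a median difference of 0.39, with 44 higher, 4 lower and 10 (20.8%) at least 1.5-fold higher. The shares over all measured genes were 58.4% higher and 11.1% at least 1.5-fold higher. Mrpl13, the counterpart of a bacterial ribosomal protein, was 6.99 in the uninjured and 8.00 in the injured array (2.01-fold). It was the 1 ribosomal gene past 2-fold, and its difference of 1.01 was 0.99 after a loess correction and 0.92 after adding a constant to the linear values, both under 2-fold. Mrpl12, a protein of the ribosomal stalk that also binds the mitochondrial RNA polymerase, was 7.44 uninjured and 8.24 injured (1.75-fold). Mrpl45, which anchors the ribosome to the inner membrane near the tunnel exit, was 7.36 uninjured and 8.10 injured (1.67-fold).

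Among the next large subunit genes, Mrpl57 stood at 8.07 uninjured and 8.79 injured. Mrpl18, in the central protuberance, stood at 7.92 and 8.60, and Mrpl36 at 6.73 and 7.39. These 6 led the large subunit, and the injured array was the brighter one in each. Mrpl35 (0.64), Mrpl20 (0.62), Mrpl16 (0.60) and Mrpl34 (0.60) completed the 10 past 1.5-fold. At the other end Mrpl33 was lower, with 6.54 uninjured and 6.22 injured. Mrpl24, a protein of the tunnel exit, was 8.59 uninjured and 8.42 injured, and Mrpl48 was 7.46 and 7.36. Mrpl14 was nearly equal (7.48 uninjured, 7.47 injured). Of these 4, the difference of Mrpl33 (-0.32) alone exceeded the SD between rows of a gene. The remaining 34 large subunit genes were higher by between 0.03 (Mrpl23) and 0.58 (Mrpl42).

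Of these 34 genes, the first 14 by difference ran from Mrpl42 (9.78 uninjured, 10.36 injured) to Mrpl3 (7.75 and 8.15), with Mrpl51, Mrpl54, Mrpl19, Mrpl15, Mrpl22, Mrpl37, Mrpl38, Mrpl50, Mrpl4, Mrpl39, Mrpl17 and Mrpl21 between them. Each of these exceeded the SD of 0.24 between rows of a gene. Mrpl22, which lines the exit tunnel, and Mrpl19 have bacterial counterparts, while Mrpl37, Mrpl38 and Mrpl39 do not. The next 10, from Mrpl55 (0.37) to Mrpl28 (0.24), included Mrpl1 (0.30), Mrpl46 (0.28) and Mrpl11 (0.24), which forms the base of the stalk that carries Mrpl12. The last 10 ran from Mrpl52 (0.17) to Mrpl23 (0.03), with Mrpl41, Mrpl32, Mrpl10, Mrpl9, Mrpl44, Mrpl40, Mrpl2 and Mrpl43 between them, all below that SD. Mrpl10, which holds Mrpl12 in the stalk, was 8.34 uninjured and 8.50 injured, a difference of 0.17 against 0.80 for Mrpl12.

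The small subunit binds the messenger RNA and holds the decoding centre. Its 26 genes had a median difference of 0.28, with 23 higher, 2 lower and 6 (23.1%) at least 1.5-fold higher. The shares over all measured genes were 58.4% higher and 11.1% at least 1.5-fold higher. Mrps27 led them, 7.17 uninjured and 7.98 injured (1.75-fold), followed by Mrps22, 6.91 and 7.67 (1.70-fold). Neither has a bacterial counterpart. The next 4 do have one: Mrps15 was 8.26 uninjured and 8.98 injured, Mrps5 was 7.76 and 8.45, Mrps7 was 7.67 and 8.34, and Mrps16 was 8.35 and 8.95. The lowest was Mrps10, 8.23 uninjured and 7.96 injured (-0.27). Mrps33 was 7.95 uninjured and 7.81 injured, and Mrps31 followed with no difference. Mrps12, part of the decoding centre, was higher by 0.23 (7.88 uninjured, 8.11 injured).

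The other small subunit genes were all higher, by between 0.03 and 0.53. Mrps18b (8.46 uninjured, 8.99 injured) and Mrps28 (7.11 and 7.62) led them, followed by Mrps17 (0.38), Mrps26 (0.31), Mrps9 (0.30), Mrps11 (0.30) and Mrps2 (0.29). Mrps36 is counted here by its symbol, and whether its protein belongs to the mitoribosome was not tested. Mrps36 (0.26) and Mrps24 (0.25) lay at the SD between rows of a gene. Mrps34, Mrps25, Mrps14, Mrps21, Mrps18c, Mrps35 and Mrps23 lay below it, from 0.23 down to 0.03.

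Mitoribosomal proteins are of a kind inherited from bacteria or of a kind found only in mitochondria. In the large subunit the median was 0.41 over 29 genes of the bacterial kind and 0.34 over 19 of the mitochondrial kind. There 8 of the 29 (27.6%) were at least 1.5-fold higher, and 2 of the 19 (10.5%), Mrpl45 and Mrpl57, against 11.1% of all measured genes. The differences ran from -0.32 to 1.01 in the bacterial kind and from -0.11 to 0.74 in the mitochondrial kind. In the small subunit the median was 0.30 over 16 genes of the bacterial kind, 4 of them at least 1.5-fold higher, and 0.22 over 10 of the mitochondrial kind, with 2 such genes. Mrps18a and Mrps30 were counted with the large subunit, where their proteins lie despite their names. Mrps18b and Mrps18c were sorted into the bacterial kind and their relative Mrps18a into the mitochondrial kind. This sorting was not checked, and the medians of the kinds depend on it. Mrps36 was counted with the small subunit by its symbol, without a check of its protein. By mean signal of the 2 arrays, the median difference was 0.29 in the dimmest 32 of the 96 genes, 0.31 in the middle 32 and 0.47 in the brightest 32. With 1 array per group the gaps between these kinds, and between subunits, have no test.

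The import genes held the 2 largest differences, those of Timm8a1 and Tomm40. The 22 import genes had a median of 0.41, with 20 higher, 2 lower and 8 (36.4%) at least 1.5-fold higher. The shares over all measured genes were 58.4% higher and 11.1% at least 1.5-fold higher. Tomm40, the channel through which nearly all precursors enter, was 8.76 uninjured and 9.81 injured (2.08-fold). Tomm70a, the receptor for carrier precursors that arrive with cytosolic chaperones, was 8.83 uninjured and 9.66 injured (1.78-fold). Tomm20, the receptor for presequences, was 8.39 uninjured and 8.91 injured (1.43-fold). The central receptor Tomm22 went from 9.68 in the uninjured to 10.01 in the injured array (1.25-fold) and the small subunit Tomm7 from 8.60 to 8.76 (1.11-fold). Tomm34, a cytosolic co-chaperone and not a part of the TOM complex, was lower, 8.32 uninjured and 8.15 injured (-0.17).

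In the TIM23 complex 5 of 6 genes were higher, where 58.4% of all measured genes were, and the median was 0.53. Timm50, the receptor that takes precursors from the TOM complex, was 7.88 uninjured and 8.63 injured (1.68-fold). The channel subunit Timm23 had 2 rows, 9.51 and 10.16 on the one used and 7.82 and 8.42 on the other, with like differences of 0.65 and 0.60. The row used is numbered under chromosome 10, whereas RefSeq places Timm23 on chromosome 14, so the locus behind it is uncertain. Timm44, which tethers the import motor to the channel, was 8.02 uninjured and 8.46 injured, and Timm21, which links the channel to the TOM complex, was 7.64 and 8.04.

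The small TIM chaperones of the intermembrane space had a median of 0.57 over 6 genes. All of them were higher, where 58.4% of all measured genes were. Timm8a1 was the highest of all 96 genes, 7.52 uninjured and 8.81 injured (2.45-fold). The loss of its human counterpart causes deafness-dystonia syndrome. A second row of Timm8a1, numbered under chromosome 10 although the gene lies on the X chromosome, read 6.97 uninjured and 8.90 injured (3.80-fold), and the mean difference over both rows was 1.61. The locus that the second row measures is uncertain, so the value of 2.45-fold rests on the row numbered under the X chromosome. Timm10 was 6.64 uninjured and 7.38 injured, and its partner Timm9 was 6.82 and 7.51. Timm13, which pairs with the Timm8 proteins, was 7.38 uninjured and 7.82 injured, and Timm8b was 7.65 and 7.91. In the TIM22 complex, which inserts carriers, the channel gene Timm22 was 7.33 uninjured and 7.42 injured, and Timm29 was 6.93 and 7.18, differences close to or under the SD between rows.

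**Figure D2:**
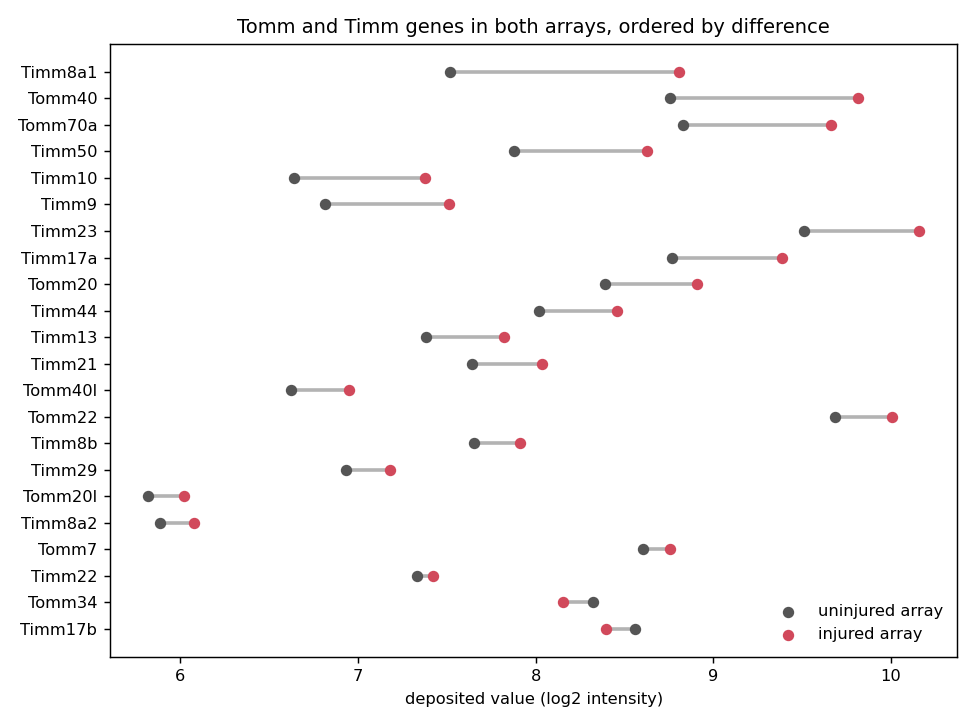
Deposited log2 intensity of each of the 22 Tomm and Timm genes in the uninjured array (grey) and the injured array (red), 1 array per group, ordered by difference from Timm8a1 at the top to Timm17b at the bottom. The red point lies to the right of the grey one in 20 genes and to the left in Tomm34 and Timm17b, and levels of different genes are not comparable.

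Several of these proteins come from pairs of related genes that did not differ alike. Timm17a and Timm17b are alternative partners of Timm23: Timm17a was 8.77 uninjured and 9.39 injured (1.54-fold), and Timm17b was 8.56 and 8.39, a gap of 0.79 between their log2 differences. Timm8a2, a relative of Timm8a1, was 5.89 uninjured and 6.07 injured, 1.10 less than Timm8a1. Tomm40l, a relative of Tomm40, was 6.62 uninjured and 6.95 injured, 0.73 less than Tomm40. Tomm20l was 5.82 uninjured and 6.02 injured, a gap of 0.32 from Tomm20. These gaps compare differences and not levels. Timm8a2 and Tomm20l lie near the low-signal level of 5.44 and their size is uncertain, and related copies can share probes, so the share of signal that belongs to each is uncertain. Of the 3 Mrps18 genes, Mrps18b was higher by 0.53, Mrps18a by 0.34 and Mrps18c by 0.07, a gap of 0.46 between Mrps18b and Mrps18c.

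Beside the mitochondrial set, 37 cytosolic ribosomal protein genes had a median difference of 0.20 and 83 subunit genes of oxidative phosphorylation had a median of 0.18. Both sets hold only measured genes on rows named with 1 gene, so genes on shared rows are missing and the sets may be partial. Of the cytosolic ribosomal genes 1 of 37 was at least 1.5-fold higher, and of the oxidative phosphorylation genes 8 of 83 (9.64%), near the 11.1% of all measured genes. None of either set was 1.5-fold lower. Higher by any amount were 33 of 37 cytosolic ribosomal genes (89.2%) and 65 of 83 oxidative phosphorylation genes (78.3%). The mitochondrial translation and import genes had 87 of 96, against 58.4% of all measured genes, so the upward direction is not particular to them. The median of the mitochondrial translation and import genes (0.33) was above both other medians, and this gap has no test.

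**Figure D3:**
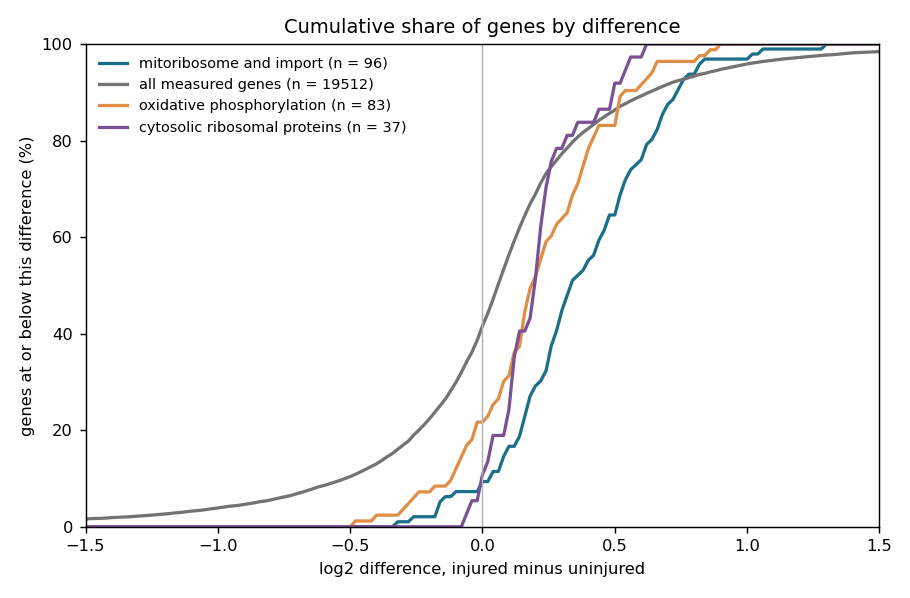
Cumulative share of genes (vertical axis, %) at or below each log2 difference, injured minus uninjured (horizontal axis), for the 96 mitoribosome and import genes and 3 other sets, 1 array per group. The curve of the 96 genes lies to the right of the others through its middle (median 0.33, against 0.20, 0.18 and 0.06), while the curve of all genes reaches further at both ends.

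Other genes of the same pathways were taken from 10 lists of 103 genes, of which 95 were measured. In all, 72 were higher and 23 lower, with a median of 0.21, with 14 (14.7%) past 1.5-fold upward and 3 (3.16%) downward. Over all measured genes 11.1% were past 1.5-fold upward and 8.77% downward, and 58.4% were higher by any amount, against 75.8% of these 95. Of all genes whose brighter value reached the 75th percentile, 15.4% were past 1.5-fold upward and 12.5% downward. The upward share of 14.7% therefore does not set these lists apart. Among the 5 measured mitoribosomal proteins whose symbols lie outside the naming pattern or were renamed since, all were higher, with Ptcd3 at 7.64 uninjured and 8.62 injured and Chchd1 at 6.66 and 7.51. Of 14 mitochondrial translation factors, 4 passed 1.5-fold upward and 0 downward: the elongation factors Gfm1 (0.89) and Tufm (0.79), and the RNA-binding partners Slirp (0.84) and Lrpprc (0.82), which stabilise mitochondrial messenger RNAs. The other 10 lay between -0.16 and 0.21. The 25 assembly factors of the mitoribosome had a median of 0.11, with Noa1, a GTPase, the 1 gene past 1.5-fold (7.49 uninjured, 8.62 injured). The rRNA methyltransferase Tfb1m was the lowest of them (-0.58), just short of 1.5-fold.

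In the motor that pulls presequence proteins into the matrix, the ATPase Hspa9 was 9.16 uninjured and 10.28 injured (1.12). Its nucleotide exchange factors differed in direction, with Grpel1 at 0.40 and Grpel2 at -0.59. Chchd4, which oxidises and traps small proteins such as the small TIMs in the intermembrane space, was 6.87 uninjured and 7.77 injured, and Samm50, which inserts barrel proteins such as Tomm40 into the outer membrane, was 8.82 and 9.41. Folding of imported proteins is the task of the chaperonin pair Hspd1 and Hspe1. Hspd1 was 8.80 uninjured and 10.38 injured (1.58) and Hspe1 was 8.54 and 9.59 (1.05). The unfoldase Clpx was lower (-0.48). Among the peptidases that remove targeting signals, Pmpca was higher by 0.42 and Immp1l was lower (-0.74).

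Of 7 measured regulators of mitochondrial gene expression, 2 were at least 1.5-fold higher, against 11.1% of all measured genes. Myc was 8.69 uninjured and 9.72 injured (1.04), and the coactivator Pprc1 was 7.10 and 7.92 (0.82). The factors Nrf1 (0.13) and Gabpa (0.22), which bind NRF1 and ETS motifs, and Ppargc1b (0.26) differed by about the SD between rows or less. Ppargc1a was below the low-signal level in both arrays (5.33 uninjured, 4.90 injured). In the list of mitochondrial DNA and its transcription 0 of 8 genes passed 1.5-fold, against 11.1% upward and 8.77% downward of all measured genes. Ssbp1 (0.46) and Twnk (0.45) were furthest and Tfam was at 0.14. In the list of mitochondrial fusion, fission and removal the median was -0.04. The mitophagy receptor Bnip3l was the furthest (9.87 uninjured, 8.99 injured), while its relative Bnip3 was higher by 0.49.

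**Figure D4:**
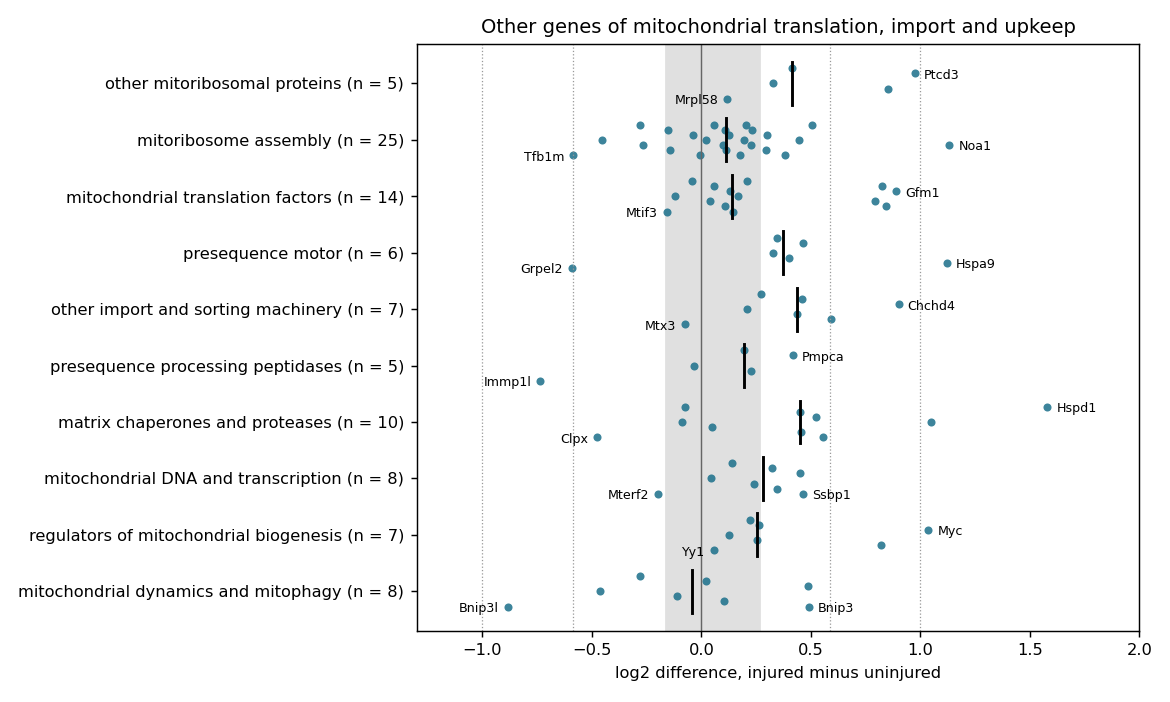
Log2 difference, injured minus uninjured, of the 95 other pathway genes (points, 1 array per group) in rows by list, with each list's median as a black bar and its highest and lowest gene named. The grey band is the middle 50% of all measured genes and dotted lines mark 1.5-fold and 2-fold; Hspd1, Noa1, Hspa9, Hspe1 and Myc lie past 2-fold, and Bnip3l is the lowest.

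The promoters of the mitoribosome and import genes were searched for the 6 motifs. Of the 96 genes 84 had a promoter in the RefSeq table of GRCm38.p6, with 92 promoters in all, and the shares below count any match in the 250 bases before the start. The ETS motif was in 25 of 92 promoters (27.2%), against 8.98% of 21263 promoters of protein-coding genes and 6.91% of all 32851 promoters. The NRF1 motif was in 10 (10.9%), against 5.18% and 3.74%, and the E-box in 11 (12.0%), against 6.63% and 6.02%. A gene with several starts counts once for each, and 1 E-box of Mrpl2 was counted in 3 overlapping promoters, so by gene the E-box was in 9 of 84. The YY1 motif was in 2 (2.17%), against 2.58% and 2.21%, and CCAAT in 33 (35.9%), against 35.4% and 33.8%. The TATA motif was in 6 (6.52%), against 11.6% and 12.4%. Of the 92 promoters, 48 held none of the ETS, NRF1, YY1 and E-box motifs. The member promoters were also richer in CpG, with a median of 16 CpG in 250 bases against 10 in protein-coding promoters, and the part of CpG content in these shares was not tested. Of the 114 matches to the 6 motifs in these promoters, 2 overlapped the match before them. The 114 are not all distinct sites, because overlapping promoters of a gene repeat a site. Besides the E-box, CCAAT sites of Mrpl2, a CCAAT site of Mrps16 and an ETS site of Tomm34 were repeated so. By gene, the ETS motif was in 24 and CCAAT in 30 of 84.

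Motif and difference were set side by side within the members. The 24 genes with an ETS match had a median difference of 0.37 and the 60 without one 0.30. With an NRF1 match it was 0.44 over 10 genes, against 0.30 over 74, and with an E-box 0.52 over 9 genes, against 0.30 over 75. Over all measured protein-coding genes the medians were 0.07 with and 0.04 without the ETS motif, 0.05 and 0.04 for NRF1, and 0.05 and 0.04 for the E-box. As the printed sequences show, high members include Tomm40 with none of these 3 motifs. Genes with and without a motif are few and are not replicates, so these medians are a description.

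Many of these genes start back to back with another gene. Of the 84 genes, 30 (35.7%) had the start of a gene on the opposite strand within 1000 bases upstream, against 17.1% of measured protein-coding genes. Mrpl46 and Mrps11, both members, start 42 bases apart, and their differences were 0.28 and 0.30. The 28 neighbours that were measured, these 2 included, had a median of 0.24, with 22 higher, 5 of them at least 1.5-fold, and 0 at least 1.5-fold lower. Over all measured genes 58.4% were higher, 11.1% passed 1.5-fold upward and 8.77% downward. The chaperonin subunit Tcp1 (0.65) lies beside Mrpl18 (0.68), and the helicase gene Twnk (0.45) beside Mrpl43 (0.07). The largest neighbour differences were those of the mitotic genes Ska3 (1.68), beside Mrpl57 (0.71), and Ncapd2 (1.39), beside Mrpl51 (0.55).

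**Figure D5:**
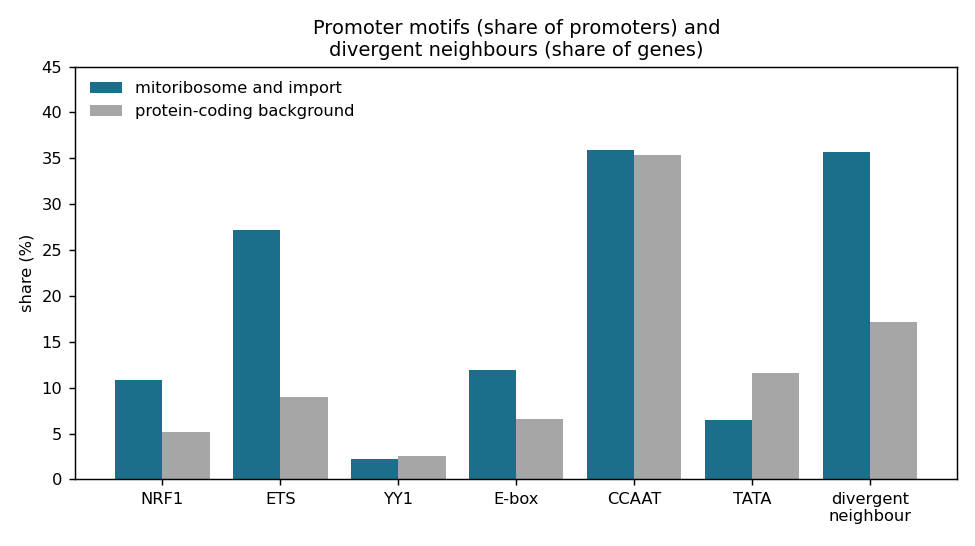
Share (vertical axis, %, from 0) of promoters with each of 6 motifs in the 250 bases before the start, and share of genes with a divergent neighbour within 1000 bases, for the mitoribosome and import genes (blue) and for protein-coding genes (grey). The ETS bar stands at 27.2% against 8.98% and the neighbour bar at 35.7% against 17.1%, whereas CCAAT is alike at 35.9% and 35.4%.

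The tissue was checked against its markers. Of 7 corneal epithelium markers all were well above the low-signal level in both arrays. Among them were Krt12 (14.07 uninjured, 10.85 injured) and Krt5 (13.85 and 13.69). In the injured array 3 of the 7, Krt12, Aldh3a1 (-2.68) and Pax6 (-1.32), were lower by 2-fold or more. Krt14 (2.23) was the 1 higher by 2-fold or more. Over all measured genes 3.92% were at least 2-fold lower and 4.14% at least 2-fold higher. Of 5 conjunctival markers the keratins Krt13, Krt4, Krt19 and Krt7 lay at 9.22 or above in both arrays, with Krt19 (1.11) and Krt7 (1.34) at least 2-fold higher. Muc5ac was 7.07 uninjured and 5.81 injured, the latter near the low-signal level. Of 6 neutrophil markers measured, 5 were higher by any amount, where 58.4% of all measured genes were. S100a9 (1.89), Csf3r (0.38) and Cxcr2 (0.29) led them, with Csf3r near the low-signal level in the uninjured array (5.45). Ly6g (0.14) and Mpo (0.04) differed by less than the SD of 0.24 between rows. S100a8, under the low-signal level in both arrays, read 3.77 uninjured and 5.32 injured. The defining genes Ly6g, Mpo and Elane lay between 5.44 and 5.58 in both arrays, at the low-signal level. Of 5 macrophage markers measured, 4 were higher by any amount, as were 58.4% of all measured genes. Cd14 (0.94) led them, while Csf1r (0.18), Cd68 (0.20) and Tyrobp (0.21) lay below the SD of 0.24 between rows. Itgam was lower (-1.55). Of 4 keratocyte markers measured, Dcn (-1.31), Col1a2 (-0.13) and Col1a1 (-0.12) were lower and Ptgds (0.20) was higher. The injured value of Dcn (4.77) lay below the low-signal level, so the size of its difference is uncertain. Kera (3.55 uninjured, 3.52 injured) and Lum (4.31 and 3.99) lay below that level in both arrays. Among the rest, 0 of 2 lymphocyte and 0 of 1 endothelial markers measured were 2-fold apart. The part of these shifts in the differences of mitochondrial genes was not tested, and more RNA per cell and a changed mix of cells cannot be told apart in such samples.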

How the data were processed

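RNA (2 µg per sample, biotin label) from injured and uninjured corneal epithelium was measured on 1 array each. The deposited values are taken as log2 intensities, from their range of 2.54 to 14.07. Agilent Feature Extraction 9.1 is named in the submitters' processing notes, while the row names have the form of transcript clusters. The sources used here do not state the background correction, probe summary, normalization or genome build. The medians of the columns differed by 0.0135 and the 75th percentiles by 0.0051, so values were kept as deposited.

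Of 65952 rows, 31254 were named with 1 gene from the platform annotation, updated through RefSeq (GRCm38.p6), 33206 are unnamed here and the rest carry several genes. A row was measured when its brighter value reached the table median. A gene with several rows was given by the row with the highest mean. Differences were computed with Python 3.11.15 and pandas 2.3.3 and checked on simulated data. With 1 array per group no test was run, and the number of arrays limits the precision. Named were all Tomm and Timm genes, the 6 highest and 3 lowest of each subunit, members past 2-fold, relatives, the 2 furthest genes of each other list, and a fixed set of regulators and chaperones. Genes outside this rule were chosen after their values were seen. The members and lists were chosen with earlier results of these data known. Alternatives were other normalizations, filters, row choices and a constant of 16 on the linear scale.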

Additional observations from a re-analysis of the deposited data

How the results depend on the processing

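With quantile normalization, equal 75th percentiles, a loess correction (span 0.3), a constant of 16 before log2, no filter, a filter at the 75th percentile, the mean of a gene's rows, and, added after seeing the data, rows numbered under their gene's own chromosome, the median of the genes stayed between 0.30 and 0.40. The large subunit median stayed between 0.36 and 0.43, the small subunit between 0.26 and 0.30, and import between 0.38 and 0.44. The count at least 1.5-fold higher was 24 in each but the constant (20), the count 2-fold higher was 3 in each but loess and the constant (2 each, without Mrpl13), and the counts lower were 0 in each. The filter at the 75th percentile left 86 genes, and over all genes it kept 15.4% were at least 1.5-fold higher and 12.5% lower. Of single genes, Timm8a1 moved most, to 1.61 with the mean of its rows. At most 2 genes changed sign, under quantile normalization, and Mrps31, equal as deposited, counts among such genes. The median over all measured genes moved by at most 0.02. No paired analysis was possible because each group has 1 array. No detection calls were used here, and Tomm20l and Timm8a2 lie nearest the low-signal level.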
